A study of Mus musculus with 6 samples.

Results

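Red blood cells carry oxygen on hemoglobin, and the 5 genes described here encode its adult protein chains and the enzyme that commits erythroid cells to making its heme. The genes were chosen by name, with results of these data in view: Hbb-bs and Hbb-bt, the adult beta globins, Hba-a1 and Hba-a2, the adult alpha globins, and Alas2, the erythroid 5-aminolevulinate synthase. All 5 had a row among the 11955 of the table. RNA was sequenced in 6 mouse libraries labelled as chondrocytes, 3 of genotype Eldr cKI and 3 of genotype control. The study concerns Eldr, a long noncoding RNA, in chondrocyte senescence. The labels do not state what the controls carry at the Eldr locus, the promoter behind the cKI allele, or the age and number of animals. The labels do not say whether the 3 libraries of a group are of different animals or cultures, and their spread may therefore be technical.

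An adult hemoglobin holds 2 alpha and 2 beta chains, each around a heme. Heme synthesis starts in the mitochondrion with 5-aminolevulinate synthase, which is Alas2 in erythroid cells and Alas1 elsewhere, and ends with ferrochelatase adding iron. Circulating red cells of mammals have no nucleus, while young red cells still hold globin messenger RNA, so globin reads are common wherever a tissue holds blood. The erythroid factors GATA1 and KLF1 act on globin genes and on Alas2.

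In the Eldr cKI libraries 3 of the 4 globins were listed at 0 in replicate 3 alone, and Hbb-bs was at its lowest there. The remaining Eldr cKI libraries held all 4 globins at levels that overlapped or lay below the controls. Alas2 was listed above 0 in Eldr cKI replicate 2 only. No gene of the wider erythroid, heme and iron lists passed the test between groups.

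The messages of each globin pair are nearly one sequence, which limits how far the members of a pair can be told apart. The GENCODE M21 coding sequences of Hba-a1 and Hba-a2 have 429 bases each and differ at 1 of them, C381T, written as the Hba-a1 base, its position from the first coding base, and the Hba-a2 base. Those of Hbb-bs and Hbb-bt have 444 bases each and likewise differ at 1, C417T, from Hbb-bs to Hbb-bt. The stretches around these positions show, in capitals, the only coding base that separates each pair.
Hba-a1: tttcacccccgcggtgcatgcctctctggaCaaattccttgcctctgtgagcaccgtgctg
Hba-a2: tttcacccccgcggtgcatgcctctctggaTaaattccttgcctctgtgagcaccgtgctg
Hbb-bs: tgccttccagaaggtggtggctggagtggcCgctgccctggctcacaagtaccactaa
Hbb-bt: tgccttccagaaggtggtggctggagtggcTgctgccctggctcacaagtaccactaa

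Over the longest transcripts, which include the untranslated ends, 65.7% of all 150-base windows of Hba-a2 occurred without a mismatch in Hba-a1, and 48.4% of those of Hba-a1 occurred in Hba-a2. The share was 50.7% for Hbb-bt windows in Hbb-bs and 58.7% for Hbb-bs windows in Hbb-bt. No such window was shared between either alpha and either beta transcript. The labels give 150 cycles as the read length. The labels do not state how reads with several alignments were divided, so the 4 single globin values are uncertain and the alpha and beta sums are given beside them.

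The promoters show what the 5 genes share in sequence and where they differ. Each line gives the 250 bases before the RefSeq start on GRCm38.p6, read on the gene's strand, with matches to 4 motifs in capitals. The motifs, searched on both strands, were the GATA motif (AGATAA or AGATAG, and the same letters with T in place of the first A), the KLF1 CACCC motif (CCNCNCCC), CCAAT and TATAA. The Hbb-bs window is chr7:103827929-103828178 on the minus strand, and that of Hbb-bt is chr7:103813924-103814173 on the minus strand. The Hba-a2 window is chr11:32296242-32296491 on the plus strand, and that of Alas2 is chrX:150547167-150547416 on the plus strand.
Hbb-bs: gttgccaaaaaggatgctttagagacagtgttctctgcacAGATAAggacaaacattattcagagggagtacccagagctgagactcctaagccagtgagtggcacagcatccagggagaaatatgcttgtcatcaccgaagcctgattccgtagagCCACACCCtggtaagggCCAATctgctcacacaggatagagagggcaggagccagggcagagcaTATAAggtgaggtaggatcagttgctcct
Hbb-bt: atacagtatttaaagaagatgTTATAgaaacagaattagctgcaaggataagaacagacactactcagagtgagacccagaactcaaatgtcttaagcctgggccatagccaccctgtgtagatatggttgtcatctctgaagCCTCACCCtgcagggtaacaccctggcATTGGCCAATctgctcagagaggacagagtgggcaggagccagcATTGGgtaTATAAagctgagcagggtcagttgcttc
Hba-a2: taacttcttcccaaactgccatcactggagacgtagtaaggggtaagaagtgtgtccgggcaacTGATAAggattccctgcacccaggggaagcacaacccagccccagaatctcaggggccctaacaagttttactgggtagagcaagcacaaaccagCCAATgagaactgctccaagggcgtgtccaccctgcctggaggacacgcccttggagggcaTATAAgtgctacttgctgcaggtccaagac
Alas2: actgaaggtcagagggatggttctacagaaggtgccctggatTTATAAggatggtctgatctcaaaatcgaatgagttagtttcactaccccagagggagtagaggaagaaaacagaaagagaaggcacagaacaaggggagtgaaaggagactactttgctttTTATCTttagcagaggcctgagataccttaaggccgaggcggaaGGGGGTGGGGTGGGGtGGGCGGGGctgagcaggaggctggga

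Hbb-bs held all 4 motifs, with the GATA match starting at -210, the CACCC match at -93, CCAAT at -76 and TATAA at -29. Hbb-bt had TATAA at -28 and in reverse at -229, and CCAAT at -75 and in reverse at -80 and -36. It had a CACCC match at -107 but no GATA match in the window. Hba-a2 had a GATA match at -186, CCAAT at -91 and TATAA at -30, and no CACCC match. The Hba-a1 window shares a run of 247 bases with that of Hba-a2 and holds the same motifs, so it is not printed. The beta promoters are far less alike, with a longest shared run of 14 bases between Hbb-bs and Hbb-bt. Alas2 held a GATA match in reverse at -86 and 4 CACCC matches in reverse, of which the first 3 overlap each other, and its pair of TATAA matches, on opposite strands, overlap too. Of 32851 mouse promoter windows of this length, 26.5% held the GATA motif, 45.9% the CACCC motif, 33.8% CCAAT and 22.8% TATAA, so each alone is common. All 4 stood together in 0.545% of the windows. The matches describe these letters only.

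The libraries were shallow. A rough depth, read from the steps between low values, came to 103363, 69111 and 239144 fragments for the Eldr cKI libraries 1, 2 and 3, against 167566, 64167 and 84349 for controls 1, 2 and 3. Values are FPKM, fragments scaled to transcript length and library size, so levels of different genes can be compared per length. A listed 0 is not proof of absence in these libraries. Polr2a, which encodes the catalytic subunit of RNA polymerase II, had a 0 in Eldr cKI replicate 1 and in control replicate 3. Elsewhere it was at 27.8 to 74.0 FPKM, and the part of depth in such zeros was not tested. For genes with such zeros, library values are given in place of a mean and SD. The marker genes of the labelled cell type were nearly absent: 7 of 15 chondrocyte markers had a row, and their sum was 1.25 to 10.4 FPKM in Eldr cKI and 5.01 to 12.7 in control. Cardiomyocyte markers (11 of 12 with a row) summed to 1634 to 5254 FPKM in Eldr cKI and 1170 to 2467 in control, so the data go against the label. Control replicate 3 stood apart with 7935 FPKM of hepatocyte markers, against 60.4 to 497 in the other 5 libraries. Eldr cKI replicate 1 stood apart with 64.6% of its FPKM in 4 predicted genes, against 4.40% to 16.9% elsewhere.

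Hbb-bs, the first of the adult beta chains (ENSMUSG00000052305.6, chr7:103826534-103828096, minus strand, GRCm38), was the only member above 0 in all 6 libraries. In the order of replicates 1, 2 and 3, which holds for all values below, its level was 190, 285 and 46.9 FPKM in Eldr cKI libraries, against 85.6, 306 and 320 FPKM in controls. The groups overlapped, since the highest Eldr cKI library lay above the lowest control. The mean was 174 ± 120 FPKM in Eldr cKI and 237 ± 132 FPKM in control (SD, n = 3 each), a difference smaller than either SD. On the log2(FPKM + 1) scale the difference was -0.57, Eldr cKI minus control, and it was 0.19 without Eldr cKI replicate 3.

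Hbb-bt, the other adult beta chain (ENSMUSG00000073940.3, chr7:103812524-103813996, minus strand), stood at 71.9, 62.2 and 0 FPKM in Eldr cKI, and at 94.1, 165 and 138 FPKM in control. Every Eldr cKI library was below every control. It was the only 1 of the 5 members whose groups did not overlap, and over all 10772 rows in the fit 2.53% were lower in Eldr cKI without overlap. The values of this contrast were known when the genes were picked, so no test is given for any member. The log2 difference was -2.96 with all libraries and -0.94 without Eldr cKI replicate 3.

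**Figure D1:**
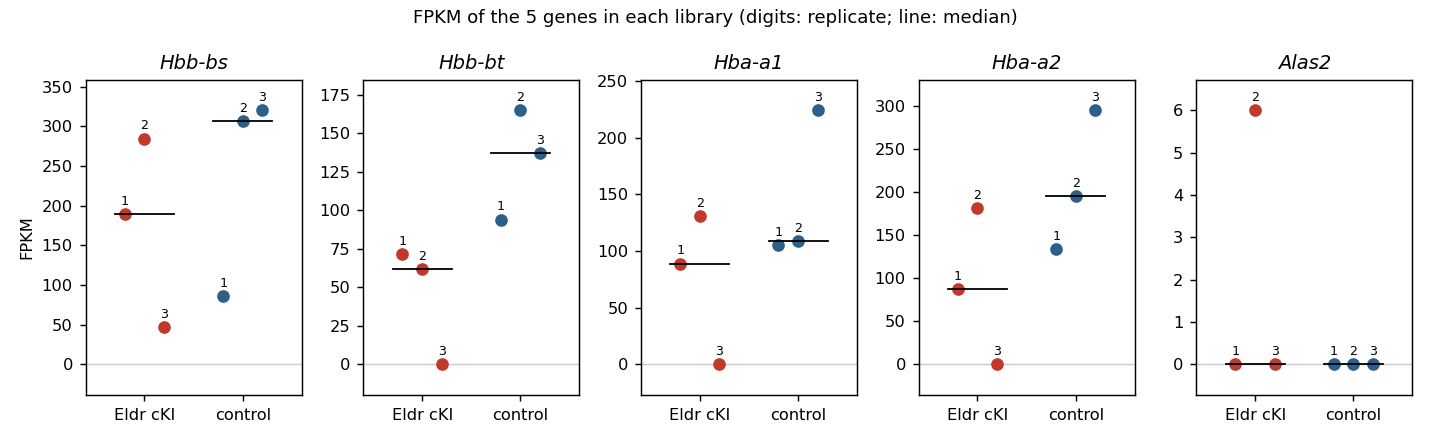
FPKM (vertical axes, linear, 1 panel per gene) of the 5 genes in the 3 Eldr cKI libraries and the 3 controls, with the replicate number above each point and a line at the group median. Eldr cKI replicate 3 is the lowest library in each globin panel, and the only Alas2 point above 0 is Eldr cKI replicate 2 at 6.001 FPKM.

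The alpha chains were measured at similar levels. Hba-a1 (ENSMUSG00000069919.7, chr11:32283511-32284465, plus strand) stood at 88.9, 131 and 0 FPKM in Eldr cKI, and at 105, 109 and 224 FPKM in control. Hba-a2 (ENSMUSG00000069917.7, chr11:32296489-32297298, plus strand) stood at 86.9, 181 and 0 FPKM in Eldr cKI, and at 134, 195 and 295 FPKM in control. For both genes the groups overlapped, because Eldr cKI replicate 2 lay above control replicate 1. Their log2 differences were -2.59 for Hba-a1 and -2.98 for Hba-a2, which became -0.34 and -0.65 without Eldr cKI replicate 3.

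Hba-a2 was the higher of the alpha pair in 4 of the 5 libraries that held both. Its level over that of Hba-a1 was 0.977 and 1.38 in Eldr cKI replicates 1 and 2, and 1.27, 1.80 and 1.32 in the controls. GENCODE starts Hba-a1 161 bases before the RefSeq start, and Hba-a2 only 3 bases before it, so the longest Hba-a1 transcript has 699 bases, against 554 for Hba-a2. That is a length ratio of 1.26, and FPKM divides by length. The part of annotated length in the order of the alpha pair was not tested.

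Alas2 (ENSMUSG00000025270.13, chrX:150547375-150570638, plus strand), which makes the first heme precursor in erythroid cells, was listed at 0, 6.001 and 0 FPKM in Eldr cKI and at 0 in all 3 controls. A single library thus carried the gene, so no fold change is given. Its 6.001 FPKM correspond to a rough 0.845 fragments at the depth of that library and a transcript of 2037 bases. The presence of the erythroid synthase in these data therefore rests on about 1 fragment.

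The globin values rest on few fragments as well. Taking the longest transcript and the depth from the steps, Hbb-bs had a rough 12.3, 12.4 and 7.05 fragments in Eldr cKI and 9.01, 12.3 and 17.0 in control. Hbb-bt had a rough 5.22, 3.02 and 0 fragments in Eldr cKI and 11.1, 7.45 and 8.16 in control. These are small numbers even though FPKM of the globins exceeded that of at least 97.0% of all rows in every library where they were above 0, apart from Hbb-bs in Eldr cKI replicate 3 (94.9%). The same rough count for the alpha genes was 4.98 to 6.93 in Eldr cKI replicates 1 and 2 and 4.88 to 13.8 in the controls.

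**Figure D2:**
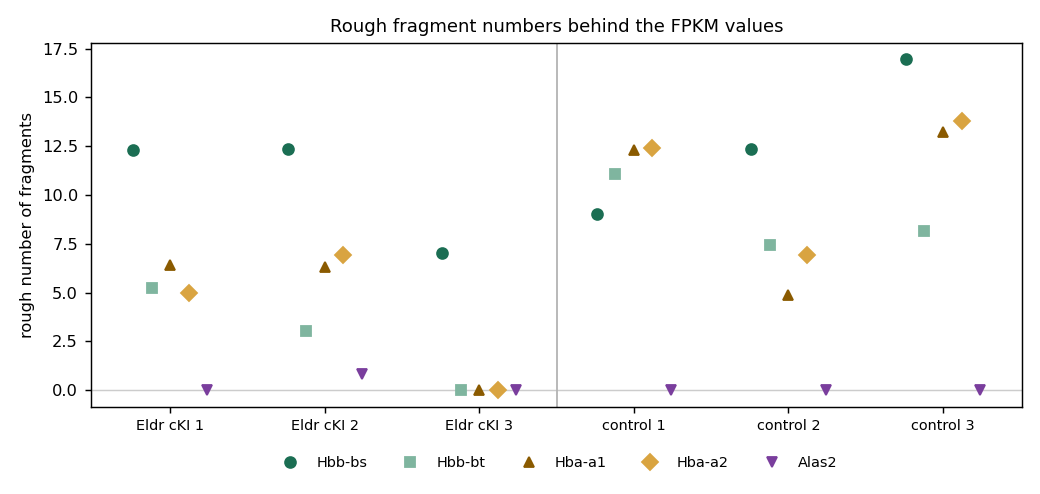
Rough number of fragments (vertical axis, linear) behind the FPKM of each gene in each library, from the FPKM, the longest annotated transcript and a depth read from the steps between low values. No point exceeds 17.0 fragments, and Eldr cKI replicate 3, although the deepest library by this rough estimate, holds only Hbb-bs, at 7.05.

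By the rough depth, Eldr cKI replicate 3 was the deepest library and yet the one without alpha globin. The estimate is least certain there, since 24.0% of its low values were whole steps, the lowest share of the 6 libraries. Control replicate 1 also listed more genes above 0, 8969 against 8390. At the estimated depth of Eldr cKI replicate 3, the lowest Hbb-bt level seen elsewhere, 62.2 FPKM, would amount to a rough 10.5 fragments. For Hba-a1 the same reckoning gives 14.9 fragments at 88.9 FPKM, and for Hba-a2 it gives 11.5 at 86.9 FPKM. Zeros at such levels were not rare in this table: of 375 rows with a mean of at least 50 FPKM over the other 5 libraries, 49 (13.1%) were listed at 0 in Eldr cKI replicate 3. The share was 6.57% to 17.3% in the other libraries, in which no adult globin was at 0. A narrower class held 66 such rows with a longest transcript under 800 bases, as in the globins, with mitochondrial and dominant predicted genes left out. Of these, 12 (18.2%) were at 0 in Eldr cKI replicate 3. The share of this class was 14.1% and 7.14% in Eldr cKI replicates 1 and 2, and 4.11%, 20% and 27% in the controls. Both counts for Eldr cKI replicate 3, 49 and 12, include the 3 globins listed at 0 there, so neither share is independent of them.

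Other transcripts of blood and immune cells did not move one way in the same library. Lyz2, a lysozyme of macrophages and neutrophils, was listed at 179, 178 and 0 FPKM in Eldr cKI and at 168, 106 and 242 FPKM in control. C1qb, a complement subunit made by macrophages, was listed at 8.89, 59.5 and 0 FPKM in Eldr cKI and at 21.8, 50.1 and 32.5 FPKM in control. S100a8, a calcium-binding protein of neutrophils, was listed at 13.6, 18.1 and 29.0 FPKM in Eldr cKI and at 0, 0 and 8.54 FPKM in control, highest in Eldr cKI replicate 3. Ltf, lactoferrin of neutrophil granules, was listed at 0, 10.8 and 6.59 FPKM in Eldr cKI and at 0 in all 3 controls, and Csf1r, a macrophage growth factor receptor, at 3.95, 1.46 and 3.16 FPKM in Eldr cKI and at 0, 0 and 4.80 FPKM in control. S100a9 was listed at 0, 50.3 and 0 FPKM in Eldr cKI and at 22.8, 0 and 0 FPKM in control. Coro1a and Laptm5 were also at 0 in Eldr cKI replicate 3, and C1qa was at 4.02 FPKM there. The leukocyte list, with 9 of 18 genes measured, summed to 205, 343 and 42.8 FPKM in Eldr cKI and to 223, 186 and 299 FPKM in control. The number of these 9 genes above 0 was 4, 8 and 4 in Eldr cKI and 5, 3 and 5 in control. Without Lyz2 the remaining 8 genes summed to 26.4, 164 and 42.8 FPKM in Eldr cKI and to 55.5, 80.1 and 57.2 FPKM in control, and Eldr cKI replicate 1 was then the lowest library. Endothelial markers, 11 of 12 measured, summed to 14.3, 33.2 and 16.1 FPKM in Eldr cKI and to 43.2, 47.7 and 27.1 in control. By this sum Eldr cKI replicate 3 was not the lowest. By the number of these genes above 0 it was, with 4, 8 and 3 in Eldr cKI and 9, 8 and 4 in control. The part of blood content in the globin values was not tested, and in bulk RNA fewer red cells and less globin RNA per cell cannot be told apart.

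Summed over the chains, alpha globin was at 176, 312 and 0 FPKM in Eldr cKI, and at 239, 304 and 519 FPKM in control. Beta globin was at 261, 347 and 46.9 FPKM in Eldr cKI, and at 180, 471 and 458 FPKM in control. All 4 globins together reached 437, 659 and 46.9 FPKM in Eldr cKI, and 418, 776 and 977 FPKM in control. The groups overlapped for each sum. The globin total was highest in control replicate 3, the library with the high hepatocyte markers, and lowest in Eldr cKI replicate 3, and the 2 libraries of lower total among the rest were Eldr cKI replicate 1 and control replicate 1.

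As a share of all FPKM the globins made up 0.232%, 0.276% and 0.0196% in Eldr cKI and 0.176%, 0.341% and 0.227% in control. With the mitochondrial genes and the 4 dominant predicted genes left out of the total, the shares were 0.860%, 0.591% and 0.0318% in Eldr cKI and 0.326%, 0.801% and 0.833% in control. On that base Eldr cKI replicate 1 had the highest share of all 6 libraries, and Eldr cKI replicate 3 again the lowest. The order of the libraries thus depended on which abundant genes were counted in the total, apart from its lowest member.

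The balance of chains varied within each group. Alpha over beta globin was 0.673, 0.900 and 0 in Eldr cKI and 1.33, 0.645 and 1.13 in control, so the groups overlapped. Hbb-bt over Hbb-bs was 0.379, 0.219 and 0 in Eldr cKI and 1.10, 0.539 and 0.430 in control, with all 3 Eldr cKI values below all 3 controls. Hbb-bs was thus the main beta chain in 5 of the 6 libraries, the exception being control replicate 1. With a rough 3.02 to 17.0 fragments behind each beta value above 0 and 1 coding base between the pair, this ratio is imprecise in every library. Hbb-bt is its numerator, so the separation of the ratio is not independent of that of Hbb-bt.

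Within the limits of these counts, no fixed order of the 4 globins held across libraries. Hbb-bs was the highest in Eldr cKI replicates 1, 2 and 3 and in control replicates 2 and 3, and Hba-a2 was the highest in control replicate 1. Hbb-bt was the lowest of the globins above 0 in Eldr cKI replicates 1 and 2 and in control replicate 3. Neighbours in the order of the means over all libraries, which was Hbb-bs at 206, Hba-a2 at 149, Hba-a1 at 110 and Hbb-bt at 88.5 FPKM, overlapped over the libraries.

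**Figure D3:**
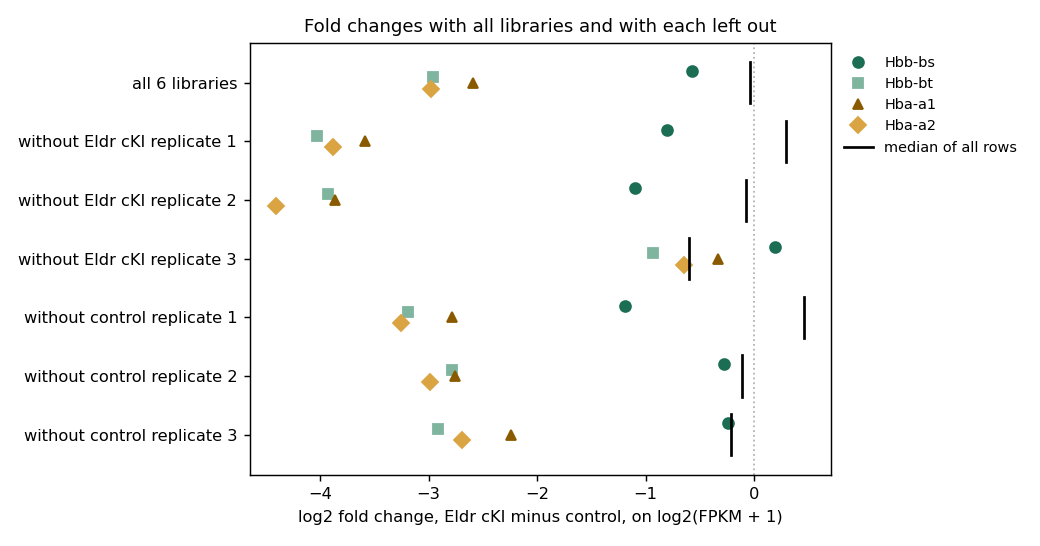
Log2 fold change (horizontal axis, Eldr cKI minus control, on log2(FPKM + 1)) of the 4 globins with all 6 libraries and with each library left out in turn, beside the median of all rows in the same fit (black line). Without Eldr cKI replicate 3 the globins lie between -0.94 and 0.19 and the median of all rows at -0.61.

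The lower globin values of Eldr cKI rested mainly on replicate 3. Without it, the log2 differences of the 4 globins were -0.94 to 0.19, while the median over all 10284 rows in that fit was -0.61. With all libraries the median over all rows was -0.04, and the globins were -2.98 to -0.57. Leaving out any other library kept the 4 globins lower in Eldr cKI, at -4.40 to -0.25. With Eldr cKI replicate 1 and control replicate 3, the libraries that stood apart, both left out (an alternative chosen after seeing the data), they were -0.48 for Hbb-bs, -3.98 for Hbb-bt, -3.23 for Hba-a1 and -3.59 for Hba-a2. These differences depend on the pseudocount of 1 because of the zeros, and with 0.1 the 3 globins listed at 0 in Eldr cKI replicate 3 were at -4.08 to -3.70.

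Other globins were compared with the red cell chains. Of the 14 further globin symbols listed, older symbols included, 3 had a row: Mb, Cygb and Ngb. No embryonic globin was among them. Mb, myoglobin, the oxygen-binding protein of heart and skeletal muscle, stood at 261, 1606 and 552 FPKM in Eldr cKI and at 391, 820 and 495 FPKM in control. The summed adult globins were 1.68, 0.410 and 0.0851 times the Mb level in Eldr cKI and 1.07, 0.946 and 1.97 times in control. Mb was therefore well detected in Eldr cKI replicate 3, where alpha globin was listed at 0. Cygb, cytoglobin, a globin of fibroblast-like cells, was listed at 0 in the Eldr cKI libraries and at 10.2, 6.69 and 0 FPKM in control, and Ngb, neuroglobin, had 8.40 FPKM in Eldr cKI replicate 2 and 0 in the other 5 libraries.

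**Figure D4:**
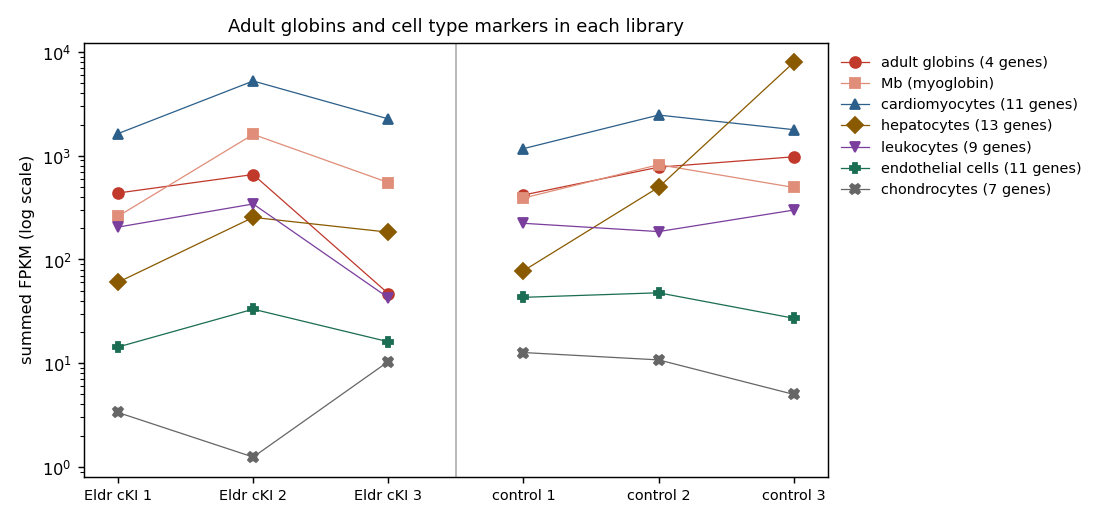
Summed FPKM (vertical axis, log scale) of the 4 adult globins, of Mb and of marker lists of 5 cell types in each library, Eldr cKI at the left and control at the right. Both the globins, at 46.9 FPKM, and the leukocyte list, at 42.8 FPKM with Lyz2 listed at 0, are lowest in Eldr cKI replicate 3, where cardiomyocyte markers stay at 2265 FPKM, and hepatocyte markers peak at 7935 FPKM in control replicate 3.

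The genes that define erythroid cells besides hemoglobin were almost unseen. Of 12 defining markers, which include Klf1, Gata1, Ahsp and Epor, only Slc4a1, the anion exchanger band 3 of the red cell membrane, had a row. It was listed at 5.20 FPKM in Eldr cKI replicate 3 and at 0 in the other 5 libraries. The library with the least globin, also the deepest by the rough estimate, was thus the only one listing this membrane gene. Megakaryocyte and platelet markers, 4 of 11 measured, summed to 1.26, 3.88 and 15.9 FPKM in Eldr cKI. In control the sums were 3.77, 0 and 0.810 FPKM. The high sum of Eldr cKI replicate 3 was almost all Ppbp, at 15.7 FPKM there and 0 in the other 5 libraries. Of the other markers in that library, Itga2b was at 0.240 FPKM, and Itgb3 and Gp1ba were at 0.

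The wider erythroid, heme, iron and globin lists held 108 genes, of which 71 had a row and 67 entered the fit beside the members. None passed a Benjamini-Hochberg adjusted p of 0.05 in limma (the smallest adjusted p was 0.959), and 1, Hmox1, had an unadjusted p under 0.05. Over all rows 0.0278% passed the adjusted threshold and 2.34% had an unadjusted p under 0.05. By mean log value, 34 of the 67 were higher and 33 lower in Eldr cKI. Their median log2 difference was 0.01, beside -0.04 over all rows. The medians of all 7 lists took both signs over the 15 alternative settings, so no list has a settled sign. The median of all rows moved as well, from -0.61 to 0.46, and the list medians were not tested against it. Groups did not overlap for 5 of the 67, with Hmox1, Bpgm and Ldb1 lower and Bcl11a and Blvrb higher in Eldr cKI. Over all rows, 2.53% were lower and 1.25% higher without overlap.

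Heme synthesis beyond Alas2 was measured at low levels. Of 8 enzymes listed, 7 had a row. By mean log value 6 were higher and 1 lower in Eldr cKI, and the median difference was 0.27. Alad, which joins 2 aminolevulinate molecules, was at 0, 7.73 and 42.5 FPKM in Eldr cKI and at 18.9, 16.6 and 0 FPKM in control. Fech, ferrochelatase, was at 0, 21.4 and 9.67 FPKM in Eldr cKI and at 18.8, 0 and 4.06 FPKM in control. Alas1, the synthase of other tissues, was at 0, 15.3 and 4.59 FPKM in Eldr cKI and at 1.92, 0 and 19.5 FPKM in control. All 3 overlapped between groups, and Alas1 was listed above 0 in 4 libraries, against 1 for Alas2.

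Iron and porphyrin transport had 11 genes in the fit, of which 7 were higher and 4 lower in Eldr cKI by mean log value, with a median of 0.22. Slc25a28, a mitochondrial iron importer found outside erythroid cells, was at 0, 0 and 11.05 FPKM in Eldr cKI and at 44.3, 25.7 and 0 FPKM in control. Aco1, the cytosolic aconitase that doubles as an iron sensor, was at 2.14, 0 and 15.8 FPKM in Eldr cKI and at 0, 37.3 and 3.39 FPKM in control. Slc25a39, a carrier of the inner mitochondrial membrane, was at 3.48, 18.3 and 11.7 FPKM in Eldr cKI and at 17.0, 0 and 0 FPKM in control. The groups overlapped for all 3.

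Of the erythroid transcription factors, 6 entered the fit, 2 higher and 4 lower by mean log value, with a median of -0.18. Ldb1, which bridges GATA1 and TAL1 complexes and is made in many tissues, was at 10.2, 0 and 11.5 FPKM in Eldr cKI and at 45.1, 19.9 and 36.2 FPKM in control. Its groups did not overlap, but the difference of -2.67 (SE 1.39) did not pass (limma, adjusted p = 0.959). Zfpm1, the GATA1 cofactor FOG1, was at 2.25, 0 and 0 FPKM in Eldr cKI and at 3.34, 27.2 and 0 FPKM in control. Zbtb7a, a repressor of fetal globin in human cells, was at 1.41, 3.19 and 0 FPKM in Eldr cKI and at 11.8, 0 and 0 FPKM in control. Bcl11a, another such repressor, was at 3.11, 4.77 and 2.06 FPKM in Eldr cKI and at 0.983, 0 and 0.900 FPKM in control.

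**Figure D5:**
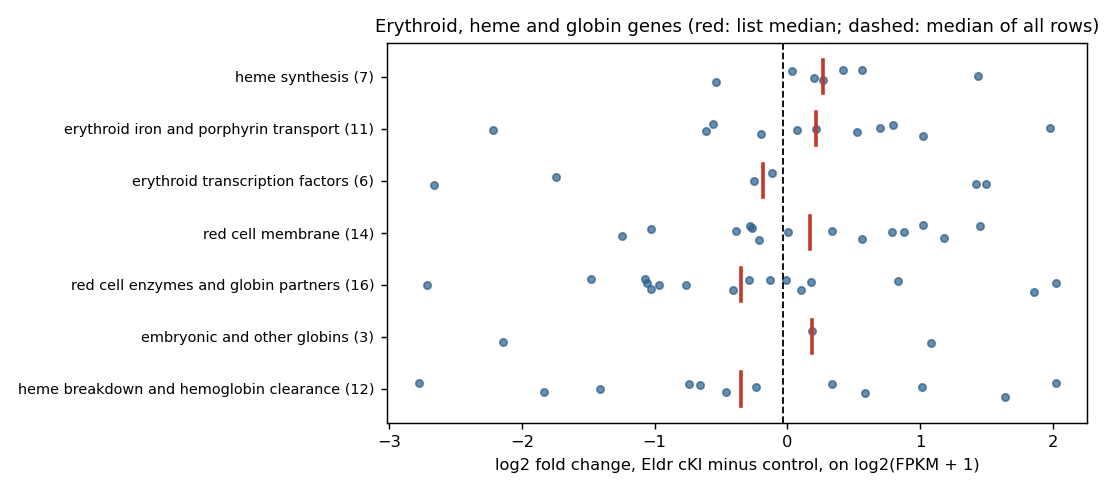
Log2 fold change (horizontal axis, Eldr cKI minus control, on log2(FPKM + 1)) of the non-member genes of 7 lists, with the number of genes in the fit in brackets, 1 point per gene. List medians (red) lie between -0.35 and 0.27, beside -0.04 for all rows (dashed).

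The red cell membrane list had 14 genes in the fit, 8 higher and 6 lower by mean log value, with a median of 0.17. Its most abundant genes are made by many cell types. Bsg, basigin, which carries the Ok blood group in humans, was at 50.3, 159 and 154 FPKM in Eldr cKI and at 220, 186 and 68.1 FPKM in control. Add1, an adducin of the membrane skeleton, was at 11.1, 22.0 and 11.04 FPKM in Eldr cKI and at 17.7, 20.5 and 11.96 FPKM in control. Epb41, protein 4.1, was at 2.54, 9.29 and 10.04 FPKM in Eldr cKI and at 16.8, 28.2 and 9.30 FPKM in control. None of these separated the groups.

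Among red cell enzymes and globin partners 16 entered the fit, 5 higher and 11 lower by mean log value, with a median of -0.35. Sod1, which removes superoxide, was at 45.2, 129 and 277 FPKM in Eldr cKI and at 228, 361 and 97.0 FPKM in control. Gpx1, a glutathione peroxidase, was at 42.1, 64.0 and 19.4 FPKM in Eldr cKI and at 33.8, 46.5 and 44.1 FPKM in control. Cat, catalase, was at 7.37, 46.0 and 16.6 FPKM in Eldr cKI and at 21.3, 0 and 54.1 FPKM in control. Bpgm, which makes the 2,3-bisphosphoglycerate that lowers the oxygen affinity of hemoglobin, was listed at 0 in all 3 Eldr cKI libraries and at 5.75, 4.30 and 6.87 FPKM in control, and did not pass (limma, adjusted p = 0.959).

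Heme breakdown and hemoglobin clearance had all 12 genes in the fit, 5 higher and 7 lower, with a median of -0.35. Fth1, the ferritin heavy chain, was the most abundant, at 454, 732 and 432 FPKM in Eldr cKI and at 595, 682 and 579 FPKM in control. Ftl1, the ferritin light chain, was at 158, 195 and 113 FPKM in Eldr cKI and at 265, 135 and 257 FPKM in control. Hp, haptoglobin, the plasma protein that binds free hemoglobin and is made in liver, was at 5.98, 26.9 and 14.7 FPKM in Eldr cKI and at 0, 0 and 100 FPKM in control, where control replicate 3 is the library with the high hepatocyte markers. Hmox1, the inducible heme oxygenase that opens the heme ring, was at 5.53, 16.5 and 0 FPKM in Eldr cKI and at 37.3, 26.5 and 33.9 FPKM in control. Every Eldr cKI library lay below every control, with a difference of -2.78 (SE 1.39, unadjusted p = 0.0462), which did not pass over all rows (limma, adjusted p = 0.959). Blvrb, a biliverdin reductase abundant in red cells, was at 3.45, 5.62 and 6.03 FPKM in Eldr cKI and at 2.11, 0 and 0 FPKM in control, and did not pass either (limma, adjusted p = 0.959).

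The genes whose levels ran most like the globin sum over the 6 libraries were looked up among 1145 genes above 0 in all libraries. Likeness was the root mean square difference between log2(FPKM + 1) profiles, each centred on its own mean, so that smaller is closer. The 6 closest were Mlph at 0.68, Ckm at 0.71, Uqcrq at 0.71, Rpl34 at 0.75, Pyurf at 0.76 and Cox7a1 at 0.77, beside a median of 1.91 over the candidates. All 6 had their lowest value in Eldr cKI replicate 3, the library that shapes the globin profile. Mlph, melanophilin, stood at 77.4, 50.3 and 17.9 FPKM in Eldr cKI and at 75.1, 129 and 198 FPKM in control. Ckm, the muscle creatine kinase, stood at 26.4, 119 and 4.45 FPKM in Eldr cKI and at 25.5, 41.5 and 41.0 FPKM in control. Of the others, Uqcrq and Cox7a1 encode subunits of the mitochondrial respiratory chain and Rpl34 a ribosomal protein. A flat profile would have scored 1.44, and the points share their libraries and depths, so the likeness is a description only.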

How the data were processed

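RNA of 6 mouse libraries was sequenced. Per the submitters' processing notes, cutadapt, HISAT2 2.0.5 and StringTie were used, with no parameters. The notes name hg19, whereas identifiers and loci are of mouse: 11017 of 11955 rows have the GRCm38 span of GENCODE M21. Per the labels' protocols, mRNA was enriched by poly(A) selection or by ribosomal RNA removal. The labels do not tell which applied to a library.

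The authors deposited, per the file headers, FPKM per library, a log2 fold change, a linear fold (ratio), p-values and q-values. None of these authors' statistics is used here. The group values headed FPKM are means of log2(FPKM + 1). Every row has a mean of at least 0.250 FPKM. No Eldr row is present, so the altered gene is not analysed here. The number of unused columns of per-sample values was 0.

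Fits used limma 3.58.1 in R 4.3.3 on log2(FPKM + 1), with a mean-variance trend and group as the only term, over 10772 rows with a mean of at least 0.5 FPKM. Genes were called at a Benjamini-Hochberg adjusted p of 0.05. Fold changes of low genes are understated on this scale. Depth was read from FPKM times length in 1181 genes with 1 transcript. Only 24.0% to 40.7% of low values were whole steps (tolerance 0.05), so counts were not recovered and no count test was run. Figures and summaries used Python 3.11.15, pandas 2.3.3, numpy 2.4.6 and matplotlib 3.10.9. Sequences are from RefSeq (GRCm38.p6) and GENCODE M21, and all 5 genes matched.

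The members and lists were chosen with earlier results of these data known. The genes named were all 5 members, every defining erythroid marker with a row, the 3 most abundant genes of each list, every list gene past the threshold (none was), and the 6 genes most like the globin sum. Bpgm, Hmox1, Bcl11a, Blvrb, Lyz2, C1qb, S100a8, Ltf, Csf1r, the leukocyte sum without Lyz2 and the length classes were singled out after their values were seen. So were S100a9, C1qa, Coro1a, Laptm5, Ppbp, Itga2b, Itgb3, Gp1ba and the numbers of leukocyte and endothelial genes above 0. Alternatives were a pseudocount of 0.1, other filters, no trend, other scalings, a replicate block and leaving out libraries.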

Additional observations from a re-analysis of the deposited data

How the results depend on the processing

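The number of genes past the threshold over all rows was 3 and was unstable. It was 8 with a pseudocount of 0.1, 1 with a mean of at least 5 FPKM, 0 without the mean trend (356 at an unadjusted p under 0.05), 1 with quantile normalization and 6 with the 4 dominant predicted genes left out. It was 5 with the replicate block. Leaving out 1 library gave 0 to 12, namely 0 without Eldr cKI replicate 1 (371 at an unadjusted p under 0.05), 5 in the absence of Eldr cKI replicate 2, 12 when control replicate 1 was omitted, and 0 without control replicate 3 (341 at an unadjusted p under 0.05). With Eldr cKI replicate 1 and control replicate 3 both left out, an alternative chosen after seeing the data, it was 0 (351 at an unadjusted p under 0.05). The cause of these shifts was not tested. The number of erythroid, heme and globin genes past it was 0 in the main comparison (limma, 1 at an unadjusted p under 0.05) and in each of the 15 alternatives (0 to 4 at an unadjusted p under 0.05).

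Among the globins, only Hbb-bs changed sign. Its log2 difference with 1 library left out was -1.19 (without control replicate 1) to 0.19 (without Eldr cKI replicate 3), and in the other 14 alternatives it was lower in Eldr cKI. The log2 differences of Hbb-bt, Hba-a1 and Hba-a2 were negative in all 15. The scaling that leaves out the dominant predicted and mitochondrial genes moved the median of all rows to -0.17, against -0.04. The list medians ranged over the 15 alternatives at -0.02 to 1.28 for heme synthesis, -0.23 to 0.71 for iron transport, -2.21 to 0.42 for transcription factors, -0.49 to 0.66 for the membrane, -0.82 to 0.05 for enzymes, -1.33 to 0.80 for other globins and -0.70 to 0.09 for heme breakdown. Alas2 did not enter the fit with a mean of at least 5 FPKM or without Eldr cKI replicate 2.

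No sign of pairing by replicate number was seen. Deviations from the group means correlated across genes at -0.17, 0.03 and -0.15 for equal numbers, against -0.07 to 0.24 for different numbers. With 3 libraries per group these values cannot settle whether the libraries were paired. In this balanced design the block cannot alter a fitted log2 difference, so it bears only on the counts above. Each globin value rests on a rough 17.0 fragments or fewer per library, which limits its precision.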
